A study of Mus musculus with 15 samples.

Results

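The BCL2 family decides whether the outer mitochondrial membrane of a cell is opened and the cell dies by apoptosis. The 10 members described here were taken by symbol from a fixed list, out of 41819 genes in the table of the pterosin B experiment. They are the survival genes Bcl2, Bcl2l1 and Mcl1, the pore-forming effectors Bax and Bak1, and the BH3-only genes Bcl2l11, Bbc3, Pmaip1, Bid and Bmf. All 10 were found in that table and all 10 were tested there. In the knockout table, which holds only the 2275 genes that its authors called, 5 of the 10 were listed. That table does not show how many genes its authors tested, so no share over all genes can stand beside this count.

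Survival proteins of the family hold the effectors and the BH3-only proteins in check. BH3-only proteins are made or activated under stress, bind the survival proteins or the effectors, and free BAX and BAK to form pores through which cytochrome c leaves. Osteoclasts, the bone-resorbing cells that arise by fusion of monocyte precursors under the cytokine RANKL, are short-lived, and in mouse osteoclasts BIM, the product of Bcl2l11, is known as a main trigger of their death.

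RNA of 15 cultures labelled as mouse bone marrow monocytes was sequenced, with 3 libraries in each of 5 groups. The series' design text instead names embryonic livers as the source of the RNA. The sample labels are followed here, and the conflict between them was not resolved. In the knockout experiment, KO cells carried a conditional deletion of Sik3, a salt-inducible kinase gene, that is labelled specific to osteoclasts (Rank_Cre/+; Sik3_flox/flox), and WT cells are labelled as wild type control. The protocol names both C57BL/6J and Rank_Cre/+ mice, and the sources used here do not state which of these gave WT. KO and WT cells had the growth factor M-CSF at 50 ng/ml for 2 days and then M-CSF with RANKL for 2 days. In the pterosin B experiment all cells came from C57BL/6J mice and also had M-CSF at 50 ng/ml for 2 days first. SCRP cells were then given RANKL at 50 ng/ml with M-CSF for 3 days in the presence of pterosin B at 300 µM, a bracken compound used against SIK3 signalling. SCR cells were given the same RANKL and M-CSF for 3 days without it, and SC cells had vehicle and no RANKL. How long SC cells were kept is not stated, so time in culture and RANKL cannot be told apart in SCR against SC. The strain is labelled C57BL/6J throughout, with no age or sex of the mice in the labels used here. Nothing states that the libraries of a group came from separate animals, so p-values here cover the spread among these cultures alone, which may be technical.

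The pterosin B libraries held 37138648 to 49927591 exon reads, and totals recovered for the knockout libraries were 21267111 to 25932103 reads. Sik3 itself was at 17.6 to 23.9 CPM (reads scaled to library size) in KO libraries, against a mean of 57.9 ± 1.74 CPM in WT libraries (SD, n = 3). The 8 monocyte and macrophage markers checked were all above 1 CPM in each group, with summed levels of 10985 to 12563 CPM in SCRP, 7774 to 8983 CPM in SCR and 22811 to 25134 CPM in SC. The 8 osteoclast markers summed to 1010 to 1336 CPM in SCRP, 5279 to 5550 CPM in SCR and 63.9 to 68.5 CPM in SC, where Calcr, the calcitonin receptor gene, had 0 reads. The 7 neutrophil markers summed to 12.9 to 15.4 CPM in SCRP, 22.1 to 23.4 CPM in SCR and 27.1 to 49.0 CPM in SC. Lymphoid markers, with the T cell gene Cd3e at 0 reads in all 3 groups, stayed at or under 0.367 CPM in all, mast cell and basophil markers at or under 0.0528 CPM, and stromal and osteoblast markers at or under 10.9 CPM. Erythroid markers reached 28.0 CPM in SCRP library 3, against at most 0.0438 CPM summed in SC libraries and 0 reads in SCR libraries. The part of these other cell types in the results was not tested. Without SCRP library 3 every member's exon call in SCRP against SCR and in SCRP against SC was kept except that of Bbc3 in SCRP against SCR. The intron call of Bid in SCRP against SCR was also lost without that library. Both are given below with their values.

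Bcl2, Bcl2l1, Bcl2l11 and Bmf changed with RANKL and with pterosin B and were listed in the knockout table, and the 250 bases before a start of each are printed here, 5′ to 3′, from the RefSeq promoter table on GRCm38.p6. Where the table held several starts, the one with the most GENCODE protein-coding transcripts within 100 bases was taken. The Bcl2l1 start lies 1011 bases inside the 5′ end of the GENCODE gene, and 4 of its 8 coding transcripts begin there. Capitals mark matches to any of 6 motifs searched on both strands.
Bcl2 promoter, chr1:106714291-106714540, minus strand: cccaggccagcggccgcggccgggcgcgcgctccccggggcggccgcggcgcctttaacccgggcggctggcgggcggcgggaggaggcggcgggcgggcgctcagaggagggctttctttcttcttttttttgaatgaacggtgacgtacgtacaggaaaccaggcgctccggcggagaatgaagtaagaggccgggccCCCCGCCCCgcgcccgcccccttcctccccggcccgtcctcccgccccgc
Bcl2l1 promoter, chr2:152830718-152830967, minus strand: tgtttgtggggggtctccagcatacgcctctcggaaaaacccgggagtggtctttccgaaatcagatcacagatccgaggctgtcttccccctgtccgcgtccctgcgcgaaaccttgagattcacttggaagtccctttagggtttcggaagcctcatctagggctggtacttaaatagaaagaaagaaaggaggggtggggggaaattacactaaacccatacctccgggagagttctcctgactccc
Bcl2l11 promoter, chr2:128125788-128126037, plus strand: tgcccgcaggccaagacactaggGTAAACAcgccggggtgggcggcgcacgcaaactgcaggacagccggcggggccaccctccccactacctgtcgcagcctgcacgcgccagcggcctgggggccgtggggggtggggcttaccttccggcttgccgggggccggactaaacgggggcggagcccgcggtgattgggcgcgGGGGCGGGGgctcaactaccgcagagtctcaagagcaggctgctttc
Bmf promoter, chr2:118549687-118549936, minus strand: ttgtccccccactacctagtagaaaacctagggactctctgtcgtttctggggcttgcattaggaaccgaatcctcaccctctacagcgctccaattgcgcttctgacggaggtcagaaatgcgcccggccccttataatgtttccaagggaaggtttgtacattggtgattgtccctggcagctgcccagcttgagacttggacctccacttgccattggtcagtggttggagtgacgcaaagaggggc

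The Bcl2 window was 74.8% G or C with 36 CpG sites and held 1 match to the GC box GGGGCGGGG, at bases -50 to -42 from the start. The Bcl2l11 window was 72.0% G or C and held a forkhead match (TGTTTAC) at -227 to -221 and a GC box at -47 to -39. The Bcl2l1 window, at 53.2% G or C, and the Bmf window, at 54.0%, held no match to any of the 6 motifs. Over 32851 promoters of this length the median was 52.4% G or C, 3.17% held TGTTTAC and 10.4% held the GC box. The other 4 motifs were the cAMP response element TGACGTCA (1.55% of promoters), the E-boxes CACGTG (6.02%) and CATGTG (12.3%), and the AP-1 motif TGANTCA (6.75%). No 2 matches overlap in the printed windows. These matches are a description of letters and not of binding.

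With RANKL, 4 of the 10 members rose, 5 fell and 1 did not pass the test. Over all 13650 genes tested, 59.1% passed, 30.7% higher and 28.4% lower in SCR, so a share of 9 in 10 stands beside a high background. The median log2 fold change was -0.18 for the members and 0.02 for all genes tested. In bulk RNA, fewer cells of a type and less RNA per cell cannot be told apart.

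Among the survival genes, 2 fell and 1 rose. Bcl2l1, which encodes the survival protein BCL-xL (chromosome 2, 152780668 to 152831728 on GRCm38), had 32.5, 33.8 and 33.9 CPM in SCR libraries and 188.9, 180.5 and 188.7 CPM in SC libraries. Every SCR library lay far below every SC library, and the gene fell 5.57-fold, a log2 fold change of -2.48 ± 0.06 (SE, adjusted p = 4.68e-15). This and every later adjusted p, apart from ranges over alternatives, comes from edgeR's quasi-likelihood test, corrected over all genes of the fit by the Benjamini-Hochberg method. Bcl2, the founding survival gene of the family (chromosome 1, 106538178 to 106714274), had 9.03, 9.53 and 10.4 CPM in SCR libraries and 31.2, 30.3 and 30.7 CPM in SC libraries. It fell 3.18-fold without overlap between the groups (log2 fold change -1.67 ± 0.09, adjusted p = 1.16e-10). Bcl2 overlaps D630008O14Rik on the opposite strand over 33103 bases, which leaves its counts uncertain while the counted strand is not stated. It also overlaps Gm37053 over 2087 bases and Mir3473f over 136 bases on the same strand. Mcl1, which encodes a survival protein known for its rapid turnover (chromosome 3, 95658788 to 95663176), moved the other way. It had 623, 573 and 601 CPM in SCR libraries and 417, 436 and 438 CPM in SC libraries. All 3 SCR libraries lay above all 3 SC libraries, and Mcl1 rose 1.39-fold (log2 fold change 0.48 ± 0.04, adjusted p = 6.71e-08).

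Both effectors fell, by less. Bax (chromosome 7, 45461697 to 45466898) had 130.9, 127.2 and 121.8 CPM in SCR libraries and 182.0, 169.7 and 154.8 CPM in SC libraries, a log2 fold change of -0.42 ± 0.06 (adjusted p = 8.22e-06). The groups did not overlap, with SC libraries the more spread. Bax overlaps the protein-coding gene Gm45808 on the same strand over 915 bases, which leaves its counts uncertain. Bak1 (chromosome 17, 27019810 to 27029009) had 176.4, 170.04 and 174.8 CPM in SCR libraries and 191.5, 189.5 and 195.3 CPM in SC libraries. It fell by 0.14 on the log2 scale (adjusted p = 0.00623), a call that was lost when reads were scaled by library size alone (log2 fold change -0.04, adjusted p = 0.469; range of adjusted p over all alternatives 0.00105 to 0.469). Bak1 lies wholly inside Ggnbp1 on the opposite strand over 9200 bases, and 55.3% to 56.0% of its exon reads per group were assigned uniquely, so that its counts are likewise uncertain.

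Of the 5 BH3-only genes, 3 rose, 1 fell and 1 did not pass. Bmf, whose product is held at the cytoskeleton until it is released (chromosome 2, 118528757 to 118549687), had 22.9, 20.1 and 20.6 CPM in SCR libraries and 4.51, 2.88 and 3.77 CPM in SC libraries. It was low in every SC library and rose 5.66-fold (log2 fold change 2.50 ± 0.13, adjusted p = 6.97e-11). Pmaip1, which encodes NOXA, a BH3-only protein that binds MCL1 above all (chromosome 18, 66458533 to 66465565), had 28.7, 29.0 and 32.03 CPM in SCR libraries and 7.51, 11.14 and 11.004 CPM in SC libraries. It rose 3.04-fold with no overlap (log2 fold change 1.60 ± 0.13, adjusted p = 9.65e-09). Bcl2l11, which encodes BIM (chromosome 2, 128126038 to 128162547), had 114.8, 104.5 and 109.2 CPM in SCR libraries and 60.6, 60.7 and 51.7 CPM in SC libraries. It rose 1.90-fold, again with every SCR library above every SC library (log2 fold change 0.93 ± 0.06, adjusted p = 1.07e-09). Bid, whose protein is cut by caspase-8 and so joins death receptors to mitochondria (chromosome 6, 120891930 to 120916853), had 48.7, 47.3 and 51.9 CPM in SCR libraries and 72.7, 73.3 and 75.3 CPM in SC libraries. It fell 1.496-fold (log2 fold change -0.58 ± 0.06, adjusted p = 1.17e-07). Bid overlaps Gm44260 on the same strand over 2094 bases and Bcl2l13 on the opposite strand over 913 bases. Its exon and intron counts are therefore uncertain too. Bbc3, which encodes PUMA, a p53 target (chromosome 7, 16308393 to 16318205), had 13.2, 10.4 and 10.5 CPM in SCR libraries and 14.2, 10.6 and 14.8 CPM in SC libraries. Its groups overlapped and it did not pass (log2 fold change -0.21 ± 0.13, adjusted p = 0.192), although it passed without SC library 2 (log2 fold change -0.34, adjusted p = 0.0346; range over all alternatives 0.0346 to 0.529).

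**Figure D1:**
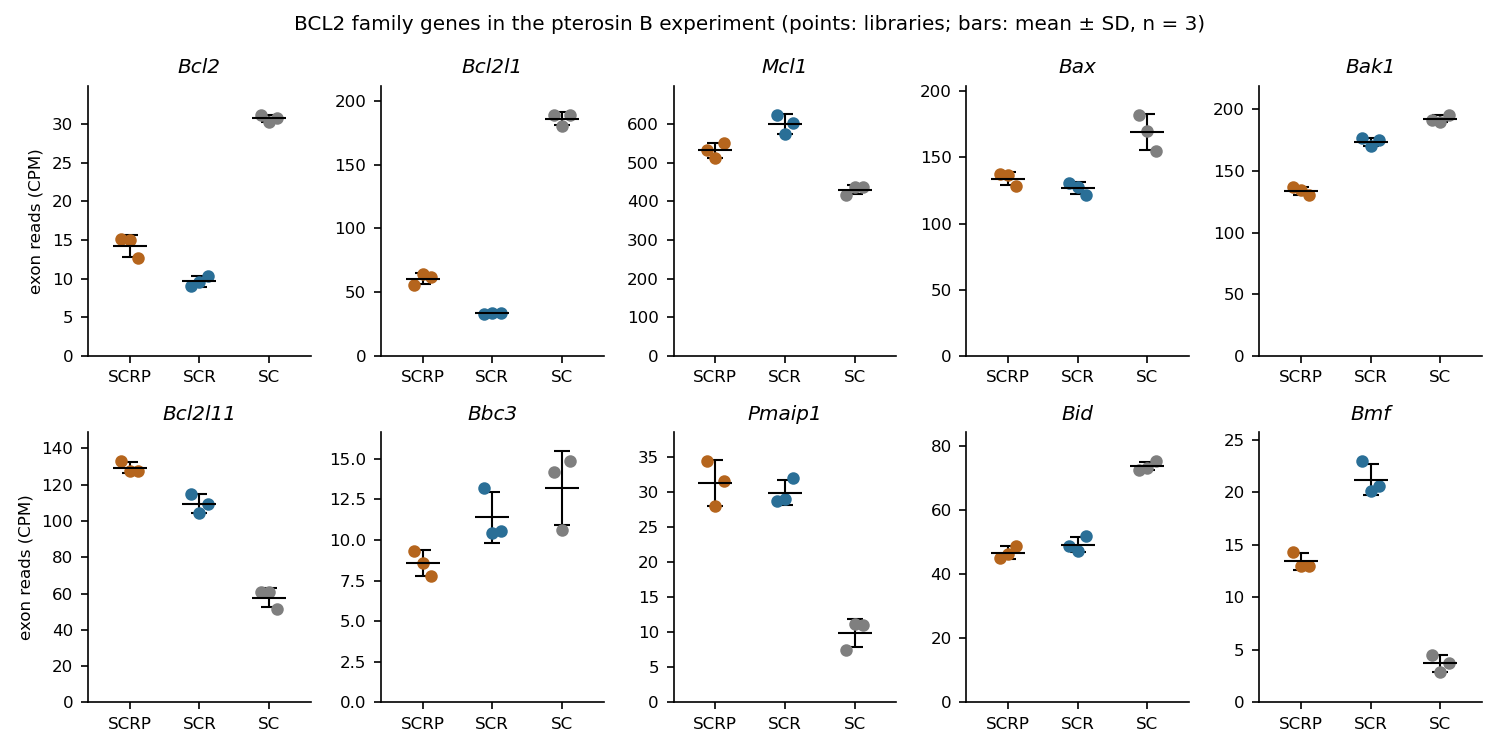
Exon reads scaled to library size (CPM, linear axes from 0) of the 10 BCL2 family genes in each SCRP, SCR and SC library, with points for libraries and bars for mean ± SD (n = 3). Bcl2 and Bcl2l1 were highest in SC, while Mcl1 and Bmf were highest in SCR and Bcl2l11 in SCRP.

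Pterosin B during RANKL treatment was followed by a rise of 3 members and a fall of 4, and 3 did not pass. The background was 37.8% of 13650 genes passing, 17.9% higher and 19.9% lower in SCRP. The median log2 fold change was -0.01 for the members, against 0.00463 for all genes tested. This comparison shares the SCR libraries with the comparison of SCR and SC.

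Bcl2l1 was again the survival gene with the largest difference, at 55.5, 64.6 and 61.8 CPM in SCRP libraries and 32.5, 33.8 and 33.9 CPM in SCR libraries. It rose 1.82-fold (log2 fold change 0.86 ± 0.06, adjusted p = 6.53e-09). Bcl2 had 15.1, 15.01 and 12.6 CPM in SCRP libraries and 9.03, 9.53 and 10.4 CPM in SCR libraries, a rise of 0.56 ± 0.09 on the log2 scale (adjusted p = 1.67e-04). Neither gene's groups overlapped. Mcl1 fell slightly, with 532, 511 and 551 CPM in SCRP libraries and 623, 573 and 601 CPM in SCR libraries (log2 fold change -0.17 ± 0.04, adjusted p = 0.0048).

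Of the effectors, Bak1 fell to 136.6, 134.5 and 130.3 CPM in SCRP libraries, against 176.4, 170.04 and 174.8 CPM in SCR libraries (log2 fold change -0.38 ± 0.04, adjusted p = 2.31e-06). The caution about reads of Ggnbp1 holds here too. Bax had 137.3, 136.4 and 128.0 CPM in SCRP libraries and 130.9, 127.2 and 121.8 CPM in SCR libraries. These groups overlapped and Bax did not pass (log2 fold change 0.08 ± 0.06, adjusted p = 0.297).

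The BH3-only genes went different ways under pterosin B. Bmf had 14.4, 13.0 and 13.0 CPM in SCRP libraries and 22.9, 20.1 and 20.6 CPM in SCR libraries, and fell 1.58-fold without overlap (log2 fold change -0.66 ± 0.12, adjusted p = 3.49e-04). Bcl2l11 had 132.8, 127.7 and 127.5 CPM in SCRP libraries and 114.8, 104.5 and 109.2 CPM in SCR libraries, and rose by 0.24 ± 0.06 on the log2 scale (adjusted p = 0.00427). Every SCRP library was thus above every SCR library for Bcl2l11 and below every one for Bmf. Bbc3 had 9.35, 8.58 and 7.78 CPM in SCRP libraries and 13.2, 10.4 and 10.5 CPM in SCR libraries, and passed narrowly (log2 fold change -0.41 ± 0.14, adjusted p = 0.025). That call was lost without SCR library 1 (-0.29, adjusted p = 0.146), without SCRP library 2 (-0.42, adjusted p = 0.0609) and without SCRP library 3 (-0.35, adjusted p = 0.101), and its adjusted p ranged from 0.00587 to 0.146 over all alternatives. Pmaip1 had 34.3, 27.9 and 31.5 CPM in SCRP libraries and 28.7, 29.0 and 32.03 CPM in SCR libraries, and Bid had 45.0, 46.4 and 48.9 CPM in SCRP libraries and 48.7, 47.3 and 51.9 CPM in SCR libraries. Both overlapped between the groups and neither passed (log2 fold change 0.06 ± 0.12 with adjusted p = 0.715 for Pmaip1, and -0.08 ± 0.06 with adjusted p = 0.317 for Bid).

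Set directly against SC, SCRP cells still differed in all 10 members, with 4 higher and 6 lower, where 56.0% of all genes passed, 28.6% higher and 27.4% lower. Bcl2l1 was 3.07-fold lower in SCRP than in SC (log2 fold change -1.62 ± 0.06, adjusted p = 6.65e-13) and Bcl2 2.16-fold lower (log2 fold change -1.11 ± 0.09, adjusted p = 2.07e-08). Bmf was 3.58-fold higher, Pmaip1 3.17-fold, Bcl2l11 2.24-fold and Mcl1 1.24-fold. Bbc3 (log2 fold change -0.63), Bid (-0.66), Bak1 (-0.52) and Bax (-0.34) were lower. For Bcl2 and Bcl2l1 the SCRP mean thus lay between the SCR and SC means, at 14.2 ± 1.39, 9.66 ± 0.697 and 30.8 ± 0.434 CPM for Bcl2 in SCRP, SCR and SC, and at 60.6 ± 4.64, 33.4 ± 0.774 and 186.0 ± 4.78 CPM for Bcl2l1 (SD, n = 3 each). For Bcl2l11 the SCRP mean, at 129.4 ± 3.005 CPM, lay above the SCR mean of 109.5 ± 5.12 CPM and the SC mean of 57.7 ± 5.16 CPM.

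In the knockout experiment the 5 listed members were the survival genes Bcl2 and Bcl2l1, both higher in KO, and the BH3-only genes Bcl2l11, Pmaip1 and Bmf, all lower in KO. The authors' table lists only genes with their corrected p under 0.05 and a fold of at least 2, so a listed gene had to differ, its adjusted p is not independent evidence, and 99.5% of the 1773 listed genes that could be tested passed. Nothing is said here of Mcl1, Bax, Bak1, Bbc3 and Bid beyond their not being listed. By the authors' folds, 1053 genes of the table were higher and 1222 lower in KO. The median log2 fold change of all tested genes of the table was -1.05. With no listed gene under a fold of 2, this median lies near the cutoff and does not measure a background shift.

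Bcl2l1 had 99.9, 105.1 and 102.0 CPM in KO libraries and 25.4, 25.1 and 26.3 CPM in WT libraries, 3.998-fold higher in KO (log2 fold change 1.999 ± 0.05, adjusted p = 2.44e-19). Bcl2 had 19.5, 19.8 and 18.9 CPM in KO libraries and 6.66, 6.38 and 6.57 CPM in WT libraries, 2.96-fold higher (log2 fold change 1.57 ± 0.10, adjusted p = 8.66e-13). Within each group the libraries lay close together. Bmf had 9.50, 8.76 and 7.94 CPM in KO libraries and 23.8, 27.0 and 24.6 CPM in WT libraries, 2.88-fold lower in KO (log2 fold change -1.53 ± 0.09, adjusted p = 9.68e-13). Bcl2l11 had 32.1, 30.5 and 34.6 CPM in KO libraries and 70.04, 66.7 and 65.9 CPM in WT libraries (log2 fold change -1.06 ± 0.06, adjusted p = 1.21e-13). Pmaip1 had 8.60, 10.2 and 8.45 CPM in KO libraries and 19.01, 18.9 and 19.8 CPM in WT libraries (log2 fold change -1.08 ± 0.10, adjusted p = 8.05e-10). No KO library overlapped a WT library in any of the 5, which the listing itself makes likely. In the authors' deposited table the folds were 4.07 for Bcl2l1, 3.02 for Bcl2, -2.83 for Bmf, -2.07 for Pmaip1 and -2.04 for Bcl2l11, where a negative fold means lower in KO, so that the last 2 stood just inside the fold of 2.

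**Figure D2:**
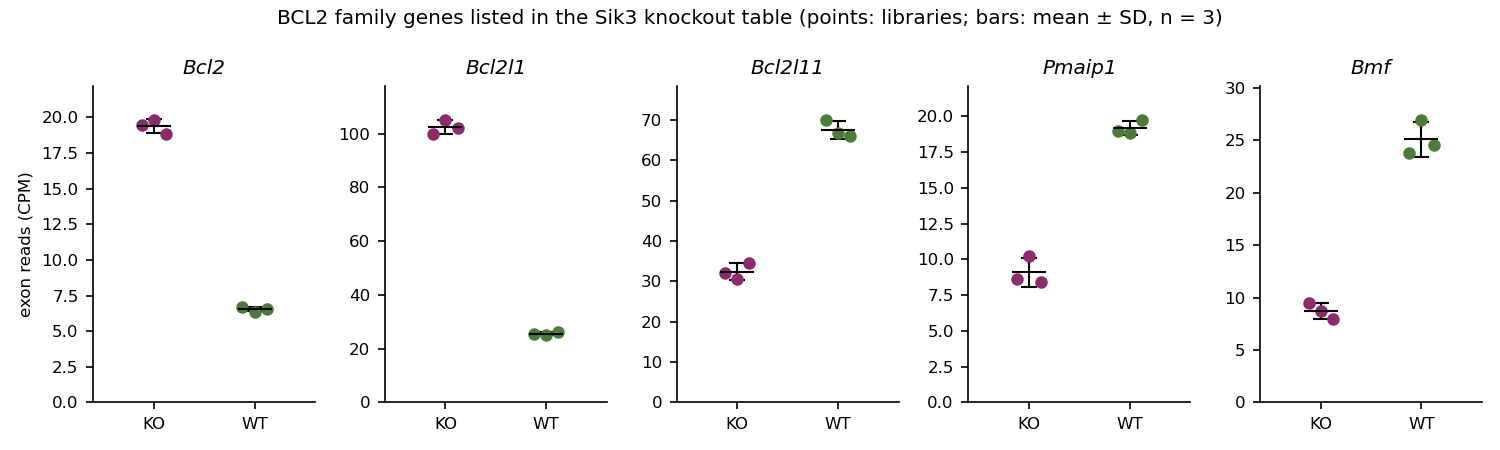
Exon reads scaled to library size (CPM, linear axes from 0) of the 5 listed members in each KO and WT library, with points for libraries and bars for mean ± SD (n = 3). Bcl2 and Bcl2l1 were higher, and Bcl2l11, Pmaip1 and Bmf lower, in all 3 KO libraries than in any WT library.

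Side by side, the deletion of Sik3 and pterosin B gave the same direction for Bcl2l1 (log2 fold changes 1.999 in KO and 0.86 in SCRP), for Bcl2 (1.57 and 0.56) and for Bmf (-1.53 and -0.66). Bcl2l11 went opposite ways, lower in KO (-1.06) and higher in SCRP (0.24). Pmaip1 was lower in KO (-1.08) and did not pass in SCRP (0.06). These are separate experiments with different RANKL times and separately normalized tables, and the difference between their fold changes was not tested.

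**Figure D3:**
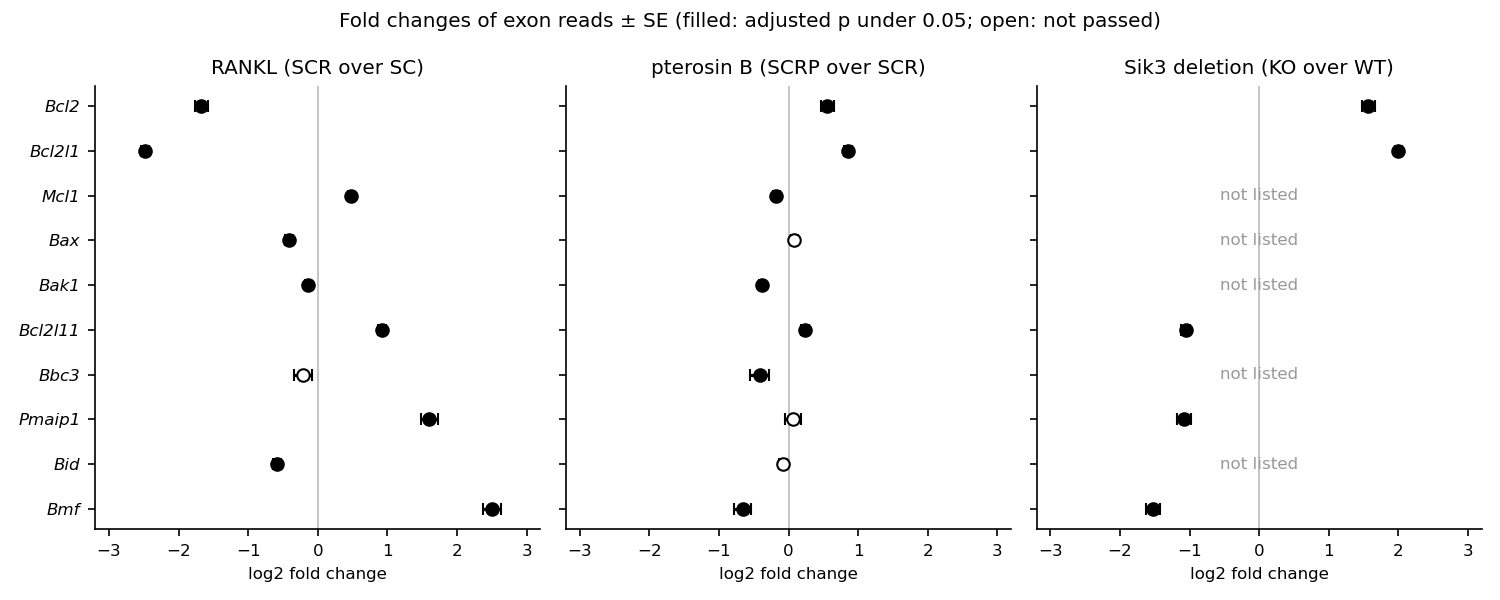
Log2 fold changes of exon reads with their SE for each member, for SCR over SC, SCRP over SCR and KO over WT, with filled points where the adjusted p was under 0.05. The knockout panel shows only genes its table lists, which had to differ: Bcl2l11 is at -1.06 there and at 0.24 in SCRP over SCR.

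On the length-scaled RPKM scale, Mcl1 was the most abundant member in every group of the pterosin B experiment. Genes can be compared on this scale as far as their annotated exon lengths apply, and which transcripts were in use was not tested. It stood at 145.2 ± 5.77 RPKM in SCRP, 162.5 ± 7.004 RPKM in SCR and 109.2 ± 3.40 RPKM in SC (SD, n = 3 each). Bax came next, and Bak1 after it, in all 3 groups, with the cautions about genes that overlap Bax and Bak1. Their levels were 79.3 ± 2.88 and 51.9 ± 1.17 RPKM in SCRP, 74.5 ± 2.57 and 66.9 ± 1.35 RPKM in SCR, and 92.9 ± 7.03 and 69.2 ± 1.37 RPKM in SC. The ranges of these 3 genes did not overlap within a group. Bcl2l1 was the fifth most abundant in SCRP at 12.3 ± 0.934 RPKM, the seventh in SCR at 6.75 ± 0.164 RPKM and the fourth in SC at 35.2 ± 0.961 RPKM. Bcl2l11 was the fourth in SCRP at 15.04 ± 0.352 RPKM, the fifth in SCR at 12.6 ± 0.596 RPKM and the sixth in SC at 6.23 ± 0.528 RPKM. Neighbours whose ranges overlapped were Bcl2l1 and Bid in SCRP, Bid and Bcl2l11 in SCR, and both Bcl2l11 with Bbc3 and Pmaip1 with Bcl2 in SC. The least abundant member was Bcl2 in SCRP (1.45 ± 0.139 RPKM) and in SCR (0.978 ± 0.0726 RPKM), and Bmf in SC (0.615 ± 0.134 RPKM).

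Per length, Bcl2l11 stood at 4.03 ± 0.258 RPKM in KO and 8.42 ± 0.272 RPKM in WT, and Bcl2l1 at 22.3 ± 0.566 RPKM in KO and 5.58 ± 0.137 RPKM in WT. Among the 5 listed members Bcl2l1 was thus the most abundant in KO and the third in WT, where Bcl2l11 and Pmaip1 (7.03 ± 0.176 RPKM) lay above it without overlap.

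**Figure D4:**
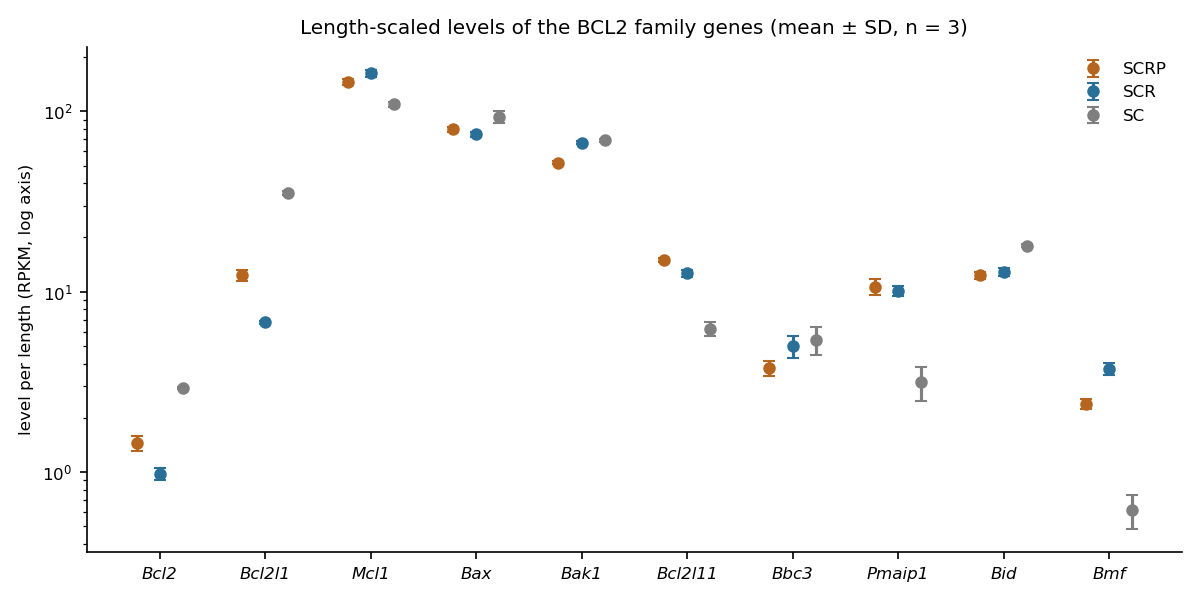
Length-scaled levels (RPKM, log axis) of the 10 members in SCRP, SCR and SC, with points for means and bars for SD (n = 3 libraries). Mcl1, Bax and Bak1 lie above the other 7 in all groups, and Bcl2l1 has its lowest level, 6.75 RPKM, in SCR.

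The ratio of Bcl2l11 to Bcl2l1 in RPKM, a ratio of a death gene to a survival gene chosen after the values were seen and given without a test, was 0.181 ± 0.0142 in KO and 1.51 ± 0.0731 in WT (SD, n = 3 each). In the pterosin B experiment it was 1.22 ± 0.125 in SCRP, 1.87 ± 0.128 in SCR and 0.177 ± 0.0185 in SC. The ratio of Bmf to Bcl2l1 was 0.0746 ± 0.00766 in KO and 0.857 ± 0.0695 in WT, and 0.195 ± 0.0271 in SCRP, 0.555 ± 0.0527 in SCR and 0.0174 ± 0.00345 in SC. Mcl1 made up 91.3% ± 0.729 of the summed RPKM of Bcl2, Bcl2l1 and Mcl1 in SCRP, 95.5% ± 0.276 in SCR and 74.1% ± 0.858 in SC. That sum was 159 ± 5.44 RPKM in SCRP, 170.2 ± 6.89 RPKM in SCR and 147 ± 3.37 RPKM in SC. The sum of the 5 BH3-only genes was 44.2 ± 1.55 RPKM in SCRP, 44.4 ± 1.82 RPKM in SCR and 33.4 ± 0.835 RPKM in SC. RPKM lacks the TMM scaling factors used for CPM, which were 0.943 to 0.950 in SC and 1.02 to 1.04 in SCR and SCRP. SC sums thus stand lower against SCR and SCRP than they would in CPM. Differences between the sums were not tested.

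Intron reads of the same libraries gave a second readout, with 12665 genes tested. With RANKL, intron reads of 4 members rose (Mcl1, Bcl2l11, Pmaip1 and Bmf), those of 3 fell (Bcl2, Bcl2l1 and Bax) and those of 3 did not pass, where 31.6% of all genes passed, 16.3% higher and 15.3% lower. Bcl2l1 introns had 14.99, 17.6 and 18.3 CPM of intron reads in SCR libraries and 73.7, 64.2 and 80.9 CPM in SC libraries (log2 fold change -2.11 ± 0.22, adjusted p = 1.70e-08). Bcl2l11 introns had 295, 236 and 221 CPM in SCR libraries and 115, 149 and 107 CPM in SC libraries (log2 fold change 1.02 ± 0.13, adjusted p = 6.34e-07). Neither pair of groups overlapped. Bcl2 introns fell by 1.48 ± 0.35 on the log2 scale (adjusted p = 0.00158), Bmf introns rose by 2.21 ± 0.48 (adjusted p = 6.76e-04) and Pmaip1 introns by 2.34 ± 0.44 (adjusted p = 1.17e-04). The Pmaip1 intron change was 3.25 without SC library 3 and 1.87 without SC library 1, and kept its call in both. The Bmf and Pmaip1 introns were thin, at 1.22 to 5.57 CPM and 1.06 to 7.53 CPM in SC libraries. Bcl2 introns were thin too, with 22 to 42 reads per library in SCR and in SCRP. The caution about genes that overlap Bcl2 holds for its intron reads. Bid, whose exon reads fell, had intron reads at 206, 174 and 207 CPM in SCR libraries and 197, 228 and 201 CPM in SC libraries, which overlapped (log2 fold change -0.09 ± 0.11, adjusted p = 0.610). The caution about genes that overlap Bid holds for these reads.

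Under pterosin B, 1 member passed in intron reads, where 14.0% of all genes did, 6.21% higher and 7.84% lower. This was Bid, at 179, 141 and 136 CPM in SCRP libraries and 206, 174 and 207 CPM in SCR libraries (log2 fold change -0.37 ± 0.11, adjusted p = 0.0304). The groups overlapped, and the call was lost with exon library sizes (-0.33, adjusted p = 0.141), without SCR library 1 (-0.33, adjusted p = 0.117) or 3 (-0.32, adjusted p = 0.125) and without SCRP library 2 (-0.32, adjusted p = 0.136) or 3 (-0.29, adjusted p = 0.149). Bcl2l1, whose exon reads rose, had intron reads at 14.5, 23.8 and 20.9 CPM in SCRP libraries and 14.99, 17.6 and 18.3 CPM in SCR libraries (log2 fold change 0.22 ± 0.23, adjusted p = 0.611). Bcl2 introns had 5.58, 10.4 and 7.68 CPM in SCRP libraries and 8.76, 6.67 and 9.96 CPM in SCR libraries (log2 fold change -0.11 ± 0.36, adjusted p = 0.905).

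Whether exon and intron changes of a gene differed was tested in a joint fit of 11580 genes. No member passed in either comparison, where 3.53% of genes passed for SCR against SC and 0.440% for SCRP against SCR, by edgeR quasi-likelihood. In simulated data for SCR against SC, this test called 59 of 100 true log2 differences of 1 and 10 of 100 smaller ones. A member that did not pass is therefore not shown to have equal exon and intron changes. At an unadjusted p under 0.05 lay 3 members for SCR against SC (Bcl2l1, Bax and Bid) and 2 for SCRP against SCR (Bcl2l1 and Bid). The share of all genes under that unadjusted threshold was not counted, so these 2 counts have no background and no result is drawn from them. The exon change of Bid with RANKL was lower than its intron change by 0.49 ± 0.13 on the log2 scale (exon minus intron -0.49, adjusted p = 0.0516), and that of Bcl2l1 under pterosin B was higher by 0.65 ± 0.19 (adjusted p = 0.154).

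**Figure D5:**
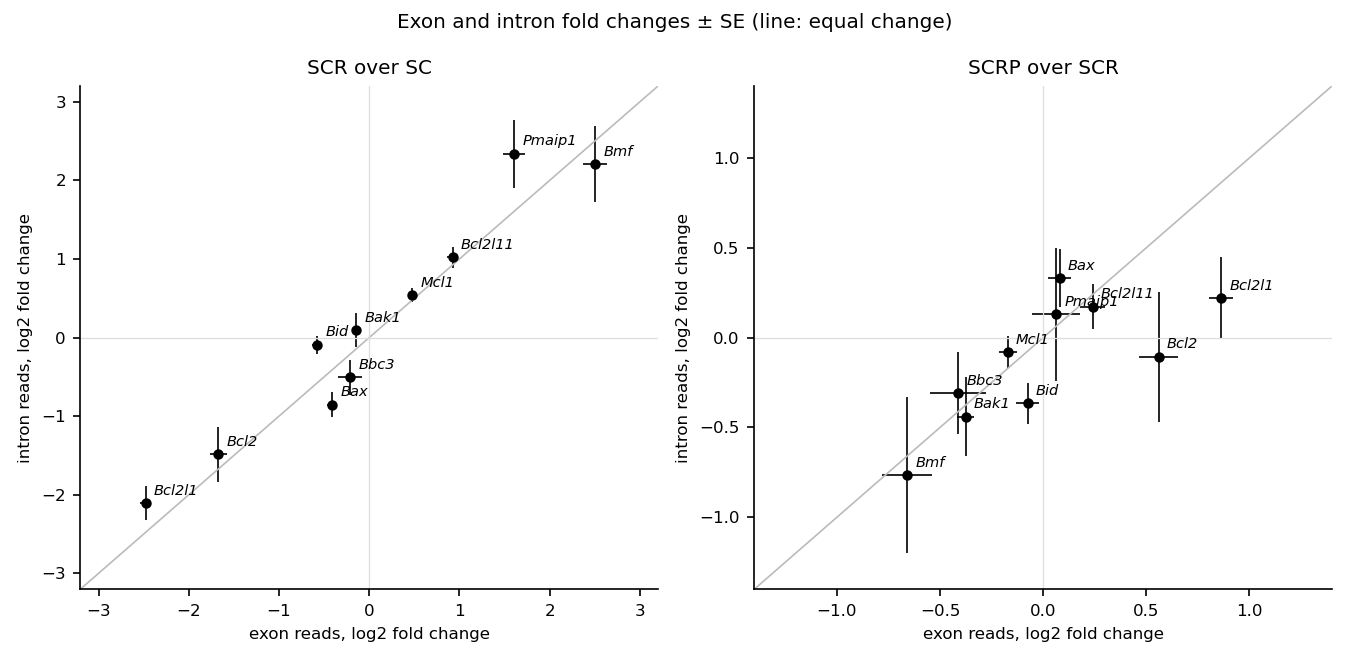
Log2 fold changes of intron reads (vertical) against exon reads (horizontal) of the 10 members with their SE, for SCR over SC and SCRP over SCR, and a line of equal change. With RANKL, Bcl2l1 lies at -2.48 for exons and -2.11 for introns, and under pterosin B at 0.86 and 0.22.

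The counts for the gene lists that follow stand beside the same backgrounds, 59.1% of all tested genes passing for SCR against SC (30.7% higher, 28.4% lower) and 37.8% for SCRP against SCR (17.9% higher, 19.9% lower). The other survival genes of the family were few. With RANKL, 4 of 5 could be tested, of which 1 rose and 2 fell. Bcl2a1b, a copy of the NF-κB-responsive survival gene A1, fell to 9.01 ± 2.68 CPM in SCR, against 88.0 ± 10.7 CPM in SC (SD, n = 3 each), 9.89-fold (log2 fold change -3.31 ± 0.17, adjusted p = 4.84e-11). Under pterosin B it was the 1 gene of the list that passed, at 15.7 ± 3.50 CPM in SCRP and 9.01 ± 2.68 CPM in SCR (log2 fold change 0.82 ± 0.17, adjusted p = 0.00125). It was also listed in the knockout table, at 24.2 CPM in KO and 5.61 CPM in WT (log2 fold change 2.11). Bcl2a1a, the 1 gene that rose with RANKL, had 0.859 CPM in SCR and 0.0339 CPM in SC (adjusted p = 1.44e-04), and Bcl2a1d 0.758 CPM in SCR and 1.02 CPM in SC. These copies are near-identical, so reads may be split between them and their separate values are uncertain. Bcl2l2, which encodes BCL-W, fell to 25.4 ± 1.17 CPM in SCR, against 36.6 ± 0.941 CPM in SC, but 9.49% of its reads were assigned uniquely and with those alone it did not pass (log2 fold change -0.48, adjusted p = 0.1005). The list's median log2 fold change was -0.47 for SCR against SC and -0.38 for SCRP against SCR.

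Of the 11 other death genes of the family, 8 could be tested. With RANKL, 3 rose, 1 fell and 4 did not pass, with a median log2 fold change of 0.0031. Bcl2l13, a receptor for removal of mitochondria, rose to 62.4 ± 2.30 CPM in SCR, against 48.9 ± 2.16 CPM in SC (log2 fold change 0.35 ± 0.06, adjusted p = 4.02e-05). Bok, an effector-like gene, rose to 1.61 ± 0.517 CPM in SCR, against 0.189 ± 0.172 CPM in SC (adjusted p = 7.53e-04), and Bik, a BH3-only gene, fell to 0.265 CPM in SCR, against 1.05 CPM in SC (adjusted p = 0.00781). Bcl2l15 had 0 reads in all SC libraries and 2.32 ± 0.993 CPM in SCR libraries, at least 31.9-fold higher in SCR against a floor of 3 reads per SC library. Bad, Bnip3 and Bnip3l had log2 fold changes of 0.02, -0.01 and -0.02, and Bcl2l12 of -0.42 (adjusted p = 0.0706), and did not pass. Bcl2l12 passed with no filter on low counts (-0.42, adjusted p = 0.046), and also without SC library 2 (-0.55, adjusted p = 0.0245) and without SCR library 1 (-0.59, adjusted p = 0.0202), where 2 genes of the list fell instead of 1.

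Under pterosin B, 1 of these 8 rose, 4 fell and 3 did not pass, with a median log2 fold change of -0.19. Bcl2l13 fell to 52.0 ± 1.53 CPM in SCRP, against 62.4 ± 2.30 CPM in SCR (log2 fold change -0.26 ± 0.06, adjusted p = 0.00135), and kept its call without any 1 library. Each of the other 4 lost its call without some single libraries. Bad (log2 fold change -0.28, adjusted p = 0.0162) lost its call without SCR library 1 (-0.23), SCR library 2 (-0.24) or SCRP library 2 (-0.25). Bok (-1.76, adjusted p = 0.0303) lost it without SCR library 1 (-1.70) or 2 (-1.55) and without SCRP library 2 (-1.71) or 3 (-1.48). Bcl2l15 (-1.27, adjusted p = 0.0291) lost it without SCR library 1 (-0.86) and without SCRP library 1 (-1.09) or 3 (-1.32), and also with uniquely assigned reads alone (-1.11, adjusted p = 0.0606), which were 65.4% of its reads. Bcl2l12 (0.55, adjusted p = 0.0319) lost it without SCR library 2 (0.46) or 3 (0.47) and without SCRP library 2 (0.52) or 3 (0.55). The number that fell was 1 without SCR library 1, 2 without SCR library 2 and 2 without SCRP library 2, and none rose without SCR library 3 or without SCRP library 2 or 3. In the knockout table Bok was listed at 0.288 CPM in KO and 1.998 CPM in WT, Bcl2l15 at 0.503 CPM in KO and 3.01 CPM in WT, and Bik at 1.53 CPM in KO and 0.586 CPM in WT.

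Downstream of the pores, 7 of 9 genes of mitochondrial release and the apoptosome rose with RANKL, 1 fell and 1 did not pass (median log2 fold change 0.53, against 0.02 for all genes), where 30.7% of all genes rose and 28.4% fell. Endog, a mitochondrial nuclease, rose 2.14-fold to 8.998 CPM in SCR, against 4.20 CPM in SC (adjusted p = 2.87e-05), and Htra2, a protease that blocks inhibitors of apoptosis once released, rose 1.92-fold (adjusted p = 3.57e-10). Apaf1, the scaffold of the apoptosome, was the gene that fell (log2 fold change -0.27 ± 0.07, adjusted p = 0.00253), a call lost when reads were scaled by library size alone (-0.16, adjusted p = 0.0521). Under pterosin B, 6 fell, 1 rose and 2 did not pass (median -0.32), where 19.9% of all genes fell and 17.9% rose. Endog fell to 5.26 CPM in SCRP, against 8.998 CPM in SCR (adjusted p = 0.00143), and Apaf1 rose to 101 CPM in SCRP, against 76.3 CPM in SCR (adjusted p = 1.40e-04). Endog was listed in the knockout table at 5.90 CPM in KO and 12.8 CPM in WT.

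Of 9 caspases 8 could be tested, and with RANKL 3 rose, 4 fell and 1 did not pass (median -0.04). Casp4, an inflammatory caspase that senses bacterial lipopolysaccharide, rose to 23.5 CPM in SCR, against 8.92 CPM in SC (adjusted p = 2.38e-08). Casp1, the caspase of the inflammasome, fell to 65.0 CPM in SCR, against 102 CPM in SC (adjusted p = 9.08e-09). Under pterosin B 2 rose, 2 fell and 4 did not pass (median -0.07). Casp2, an initiator caspase, rose to 47.3 CPM in SCRP, against 37.9 CPM in SCR (log2 fold change 0.32 ± 0.06, adjusted p = 4.76e-04), and Casp4 fell to 16.4 CPM in SCRP, against 23.5 CPM in SCR (adjusted p = 0.00155).

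All 7 inhibitors of apoptosis changed with RANKL, 5 higher and 2 lower (median 0.24), where 59.1% of all genes changed, 30.7% higher and 28.4% lower. Birc3, which encodes the ubiquitin ligase cIAP2 and is known as an NF-κB target, rose 6.17-fold to 137 CPM in SCR, against 22.2 CPM in SC (log2 fold change 2.62 ± 0.06, adjusted p = 6.80e-15). Birc2, its close relative, rose 1.74-fold (adjusted p = 3.74e-06), and Naip5, a sensor of bacterial flagellin, fell to 20.2 CPM in SCR, against 44.4 CPM in SC (adjusted p = 1.02e-09). Under pterosin B 2 rose, 2 fell and 3 did not pass (median -0.0022). Xiap, a direct caspase inhibitor, fell to 160.2 CPM in SCRP, against 185.7 CPM in SCR (adjusted p = 0.00156). Of the 2 that rose, Naip2 kept its call without any 1 library (log2 fold change 0.38, adjusted p = 1.92e-04), and Birc5 (0.16, adjusted p = 0.0378) lost it without any 1 of the 6 libraries compared.

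In the death receptor arm, which cuts BID through caspase-8, none of 8 genes rose with RANKL, 3 fell and 5 did not pass (median -0.22). Fas, named after its values were seen, did not pass at 0.33 on the log2 scale (adjusted p = 0.0511), but rose without SC library 1 (0.39, adjusted p = 0.0481), without SC library 3 (0.40, adjusted p = 0.0409) and without SCR library 2 (0.42, adjusted p = 0.028). Tnfrsf1a, a receptor of tumour necrosis factor, fell to 134 CPM in SCR, against 201 CPM in SC (adjusted p = 7.90e-09), and Ripk1, a kinase of that receptor's complex, fell by 0.36 on the log2 scale (adjusted p = 5.11e-06). Under pterosin B 2 rose, 2 fell and 4 did not pass (median 0.07). Cflar, which encodes the caspase-8 regulator FLIP, rose to 135 CPM in SCRP, against 111 CPM in SCR (log2 fold change 0.29 ± 0.05, adjusted p = 3.96e-04), and the death receptor gene Fas fell to 6.66 CPM in SCRP, against 9.76 CPM in SCR (adjusted p = 0.0052). The other gene that rose, Fadd, had 25.9% of its reads assigned uniquely, did not pass with those alone (0.05, adjusted p = 0.877) and lost its call without SCR library 3 (0.23) and SCRP library 3 (0.21). The other gene that fell, Tnfrsf10b, lost it without SCR library 3 (-0.37) and SCRP library 1 (-0.28). Without SCRP library 1, 3 genes rose and 1 fell, and without SCRP library 3, 1 rose.

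Of p53 and 13 of its known targets, 3 rose with RANKL, 7 fell and 4 did not pass (median -0.42). Trp53 itself rose to 158 CPM in SCR, against 93.7 CPM in SC (log2 fold change 0.75 ± 0.05, adjusted p = 4.85e-10). Cdkn1a, the cell cycle inhibitor p21, fell to 162 CPM in SCR, against 449.7 CPM in SC (adjusted p = 1.75e-11), and Sesn1, a stress-response regulator, fell 3.19-fold (adjusted p = 9.95e-12). Aen, a nuclease gene, was the weakest of the 3 that rose (0.16, adjusted p = 0.0449) and lost its call without SC library 2 (0.14) or 3 (0.15) and without SCR library 1 (0.15) or 2 (0.15). Under pterosin B 1 rose, 8 fell and 5 did not pass (median -0.18). With any 1 library left out, 6 or 7 fell. Sesn1 rose to 53.5 CPM in SCRP, against 38.6 CPM in SCR (adjusted p = 1.20e-04), and it was listed in the knockout table at 90.2 CPM in KO and 44.6 CPM in WT. The knockout table also listed Perp, a membrane protein gene, at 0.757 CPM in KO and 4.94 CPM in WT, and Btg2, an antiproliferative gene, at 8.07 CPM in KO and 2.97 CPM in WT. Zmat3, an RNA-binding protein, fell to 32.1 CPM in SCRP, against 41.8 CPM in SCR (adjusted p = 6.41e-05).

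Of 14 transcription factors known to act on genes of the family 12 could be tested. With RANKL 5 rose, 4 fell and 3 did not pass (median 0.11). With any 1 library left out, 3 fell. Mitf, an osteoclast factor known to act on Bcl2 in melanocytes, rose to 142 CPM in SCR, against 82.3 CPM in SC (log2 fold change 0.79 ± 0.05, adjusted p = 4.76e-10). Foxo3, a forkhead factor known to act on Bcl2l11 and Bbc3, fell to 56.1 CPM in SCR, against 94.5 CPM in SC (adjusted p = 4.43e-08). Under pterosin B 4 rose, 2 fell and 6 did not pass (median 0.04). Mitf fell to 74.3 CPM in SCRP, against 142 CPM in SCR (log2 fold change -0.94 ± 0.05, adjusted p = 4.16e-10), and Egr1, an immediate-early factor, fell to 2.37 CPM in SCRP, against 8.65 CPM in SCR (adjusted p = 7.18e-06). E2f1, a cell cycle factor, rose to 74.9 CPM in SCRP, against 55.5 CPM in SCR (adjusted p = 3.89e-06), and Myc rose 1.31-fold (adjusted p = 1.93e-05).

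Of 17 genes for partners and turnover of the family's proteins, 4 rose with RANKL, 6 fell and 7 did not pass (median -0.07). Huwe1, a ubiquitin ligase of MCL1, rose to 581 CPM in SCR, against 417 CPM in SC (log2 fold change 0.48 ± 0.04, adjusted p = 4.08e-08), and Mapk3, the kinase ERK1 that marks BIM for breakdown, fell to 98.3 CPM in SCR, against 168 CPM in SC (adjusted p = 8.00e-09). Under pterosin B 5 rose, 6 fell and 6 did not pass (median 0.04). With any 1 library left out, 3 or 4 rose and 6 or 7 fell. Ywhaz, a 14-3-3 protein of the kind that holds BAD in the cytoplasm, fell to 454 CPM in SCRP, against 599.8 CPM in SCR (adjusted p = 9.001e-07), and the co-chaperone gene Bag3 fell 1.399-fold (adjusted p = 9.17e-06).

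For the 6 members that passed in both SCR against SC and SCRP against SCR, the 3 genes with the most similar profile over the 9 libraries were looked up among genes averaging at least 5 CPM, by Euclidean distance of centred log2 CPM. Bcl2l1 was nearest to Rcsd1 (distance 0.212, Pearson r = 0.998), the endosomal RNA sensor Tlr8 (0.249, r = 0.997) and Iqgap2 (0.269, r = 0.997). Tlr8 had 37.1 CPM in SCRP, 21.9 CPM in SCR and 126 CPM in SC. Bcl2 was nearest to Slc9a3r1 (0.227, r = 0.995), Ms4a6c (0.275, r = 0.994) and Arhgap19 (0.287, r = 0.991). Bcl2l11 was nearest to Btg1 (0.213, r = 0.992), Afdn (0.226, r = 0.993) and the transcription factor gene Klf4 (0.233, r = 0.991), which had 34.9 CPM in SCRP, 28.4 CPM in SCR and 14.3 CPM in SC. Bmf was nearest to the unconventional myosin gene Myo10 (0.422, r = 0.991), St18 (0.468, r = 0.989) and the complement gene C3 (0.491, r = 0.991). Mcl1 was nearest to Akr1b8, Rpl21 and Fam210a, and Bak1 to Tln1, Rab31 and Lamtor3, at distances of 0.102 to 0.107 and of 0.0994 to 0.123. The 9 libraries fall into 3 groups, so these likenesses describe mostly the 3 group means.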

How the data were processed

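RNA-seq of 15 cultures (3 libraries in each of 5 groups) came as 2 tables. Per the file headers, the deposited counts are the authors' exon and intron reads per gene, neither pooled nor normalized, and the RPKM values are the authors' reads scaled by exon length and library size. Per the file headers, the authors' signed fold (a score, negative for a fall) and FDR-corrected p-values come from a test they call EDGE. The submitters' processing notes name the build GRCm38 (mm10). Aligner, counter and strand counted were not given in the sources used here.

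Counts were tested with edgeR 4.0.16 in R 4.3.3 (filterByExpr, TMM, quasi-likelihood, Benjamini-Hochberg adjustment, threshold 0.05). The 9 pterosin B libraries shared 1 fit of 13650 genes with dispersion 0.0072 and 6 residual degrees of freedom; introns and the exon-against-intron difference were fitted likewise. The pterosin B totals were 37138648 to 49927591 reads. The knockout table holds only 2275 genes, all with the authors' corrected p under 0.05 and a fold of at least 2, so library totals (21267111 to 25932103) were recovered from RPKM and no scaling factors were used. Even counts made up 75.3% to 79.0% of low counts in the pterosin B table, against 45.5% to 50.7% in the knockout table. Whether a read pair counts as 2 in the pterosin B table is not known. If it does, the totals, low counts and floors given for that experiment rest on fewer fragments than reads. The fits were tested on simulated data, which did not copy the excess of even counts. For SCR against SC, the intron test called 13 of 100 true log2 changes of 0.585 and 73 of 100 of 1. The exon test called 88 and 96, and the test of the exon-against-intron difference called 10 and 59. Python 3.11.15, pandas 2.3.3 and numpy 2.4.6 made the summaries, and gene models were GENCODE M21. DESeq2 1.42.0 was an alternative test.

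The members and lists were chosen with earlier results of these data known. Named were all members, the other tested genes of the family, and from each other list up to 2 genes per direction with the largest change past the threshold at 1 CPM or more on average. From these, examples are given, and some genes are not reported here. For likeness, genes averaged at least 5 CPM. In all, 105 columns of per-sample values were not used.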

Additional observations from a re-analysis of the deposited data

How the results depend on the processing

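The alternatives cover the members' exon results and the intron results of members that had passed (7 for SCR against SC and 1 for SCRP against SCR). Of these values 498 kept direction and call, 9 lost the call, 1 gained it and 1 changed sign. These exceptions were Bak1, Bbc3 and the introns of Bid, given with their values above, and Pmaip1 in SCRP against SCR, which ranged from -0.0079 without SCRP library 1 to 0.14 without SCRP library 2 and never passed. For KO against WT the alternatives included other ways of scaling the libraries. Log2 fold changes there ran from 1.64 to 2.02 for Bcl2l1 and from 1.21 to 1.59 for Bcl2. They ran from -1.42 to -1.02 for Bcl2l11, -1.88 to -1.46 for Bmf and -1.43 to -1.02 for Pmaip1.

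Scaling by library size alone, an alternative chosen after seeing the data, moved the median log2 fold change of all genes by 0.107 in SCR against SC and by 0.125 in SCRP against SC, and the share of calls that were higher became 62.4% in SCR against SC (52.0% before) and 64.0% in SCRP against SC (51.1% before). Leaving out 1 library at a time gave 7567 to 7800 genes past the threshold for SCR against SC (8064 with all), 4396 to 4767 for SCRP against SCR (5156), 7039 to 7278 for SCRP against SC (7639), 1758 to 1830 for KO against WT (1765), 3461 to 3653 and 1298 to 1601 for introns (4003 and 1779), and, likewise chosen later, 234 to 276 and 21 to 34 for the exon-against-intron difference (409 and 51). DESeq2 gave 8156, 5307, 7718 and 1713.

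Among other genes of the family that did not pass, some small log2 fold changes changed sign. For SCR against SC, Bnip3 was 0.099 and Bnip3l 0.089 with library size alone, and Bnip3 was 0.00036 with unique reads. Without 1 library, Bad ranged from -0.027 to 0.10, Bnip3 from -0.033 to 0.028 and Bnip3l from -0.050 to 0.0074. For SCRP against SCR, unique reads gave -0.30 for Bcl2l2 and -0.010 for Bnip3, and without 1 library Bcl2l2 ranged from -0.030 to 0.13. For SCRP against SC, Bnip3 was -0.010 with unique reads and Bcl2l12 ranged from -0.0072 to 0.36 without 1 library. The cause was not tested.

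Deviations from the group mean correlated at -0.0595 to 0.118 between same-numbered libraries. The labels do not say whether equal numbers pair libraries, and such low correlations cannot settle it. With the replicate number as a block, the counts were 8182, 5393, 7773 and 1757, and 4068 and 1865 for introns, and among those results no member changed its call. Bcl2l15 in SCRP against SCR lost its call (-1.20, adjusted p = 0.0601).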
